A study of Mus musculus with 6 samples.

Results

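The lysosomal module was a list of 36 genes that encode lysosomal hydrolases, lysosomal membrane proteins, subunits of the vacuolar proton pump and regulators of the lysosome. Its members were taken by gene symbol from the 34745 genes of the deposited table, and all 36 were found. They fell into 6 roles, with 2 transcriptional regulators, 8 cathepsins and other proteases, 8 glycosidases, 5 lipid and other hydrolases and their cofactors, 6 membrane proteins and 7 V-ATPase genes. Of the 36 members, 31 carried the KEGG term for the lysosome in the deposited annotation.

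The study sequenced cortical total RNA at postnatal day 8 (P8), with 3 libraries labelled Pen-2_CKO and 3 labelled Control. Pen-2_CKO mice were Pen-2 F/F and carried hGFAP-Cre, a transgene in which a human GFAP promoter drives Cre recombinase, and Control mice were Pen-2 F/F with no Cre named in the labels. Both groups therefore carried the floxed alleles, and the Cre transgene and the deletion cannot be told apart. The human GFAP promoter is known as background to be active in radial glial progenitors, whose descendants include cortical neurons as well as glia. The titles number the libraries but do not say whether each is its own animal, so p-values measure only the spread between these samples.

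Lysosomes are acidic compartments in which hydrolases break down material that arrives by endocytosis, phagocytosis and autophagy. The V-ATPase pumps protons into them, membrane proteins keep the enzymes apart from the cytosol and move products and ions across the membrane, and TFEB and TFE3 switch many lysosomal genes on together. In the brain, microglia are rich in lysosomal proteases, and inherited loss of many of these enzymes causes storage disease of neurons.

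Values were FPKM, fragments scaled for gene length and library depth, and low values implied 25123100, 26092700 and 26809300 fragments in the Pen-2_CKO libraries and 21633200, 20251900 and 24872600 in the Control libraries. The targeted gene, Psenen (ENSMUSG00000036835), stood at 3.56, 3.90 and 4.03 FPKM in Pen-2_CKO and at 6.35, 6.86 and 7.32 FPKM in Control libraries, with no overlap (log2 fold change -0.82, SE 0.09, limma adjusted p = 0.00441). Markers of cell classes differed between the groups: the summed level of 10 astrocyte markers was 126 to 225 FPKM in Pen-2_CKO and 403 to 481 FPKM in Control libraries, and that of 11 oligodendrocyte lineage markers was 337 to 436 FPKM in Pen-2_CKO and 120.2 to 159 FPKM in Control libraries. Markers of neurons, 8 in number, summed to 1548 to 1656 FPKM in Pen-2_CKO and 1857 to 1865 FPKM in Control libraries. Most of that neuronal sum was Tubb3, and the median log2 fold change of the 8 was -0.03. None of the markers in any list was at 0. In such bulk tissue, fewer cells of a type and less RNA per cell cannot be told apart.

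Across the module, mean levels ran over more than 2 orders of magnitude, with Psap highest and Tfeb lowest. Of the 36 members, 35 were tested, and all 35 had at least 0.5 FPKM in all 6 libraries. Lipa alone was called higher in Pen-2_CKO cortex at an adjusted p under 0.05 (limma, Benjamini-Hochberg adjustment over 14147 genes), and 0 members were called lower, where 5.53% of all tested genes were called, 3.67% higher and 1.87% lower. Over all genes that split was 519 higher and 264 lower, and 312 higher and 346 lower after median-ratio scaling. At an unadjusted p under 0.05, 8 members were higher and 0 lower, against 16.5% and 6.33% of all tested genes. The libraries of the groups did not overlap, with Pen-2_CKO higher, for 14 of the 36 members, Tfeb among them, and did so with Pen-2_CKO lower for 0, against 21.5% and 8.17% of all tested genes. The median log2 fold change of the members was 0.14, beside 0.07 over all tested genes, and 29 of 35 members lay above 0, beside 63.6% of all tested genes. After median-ratio scaling, which sets the median of all genes to about 0, the members' median was 0.07 and 22 of 35 lay above 0. 

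**Figure D1:**
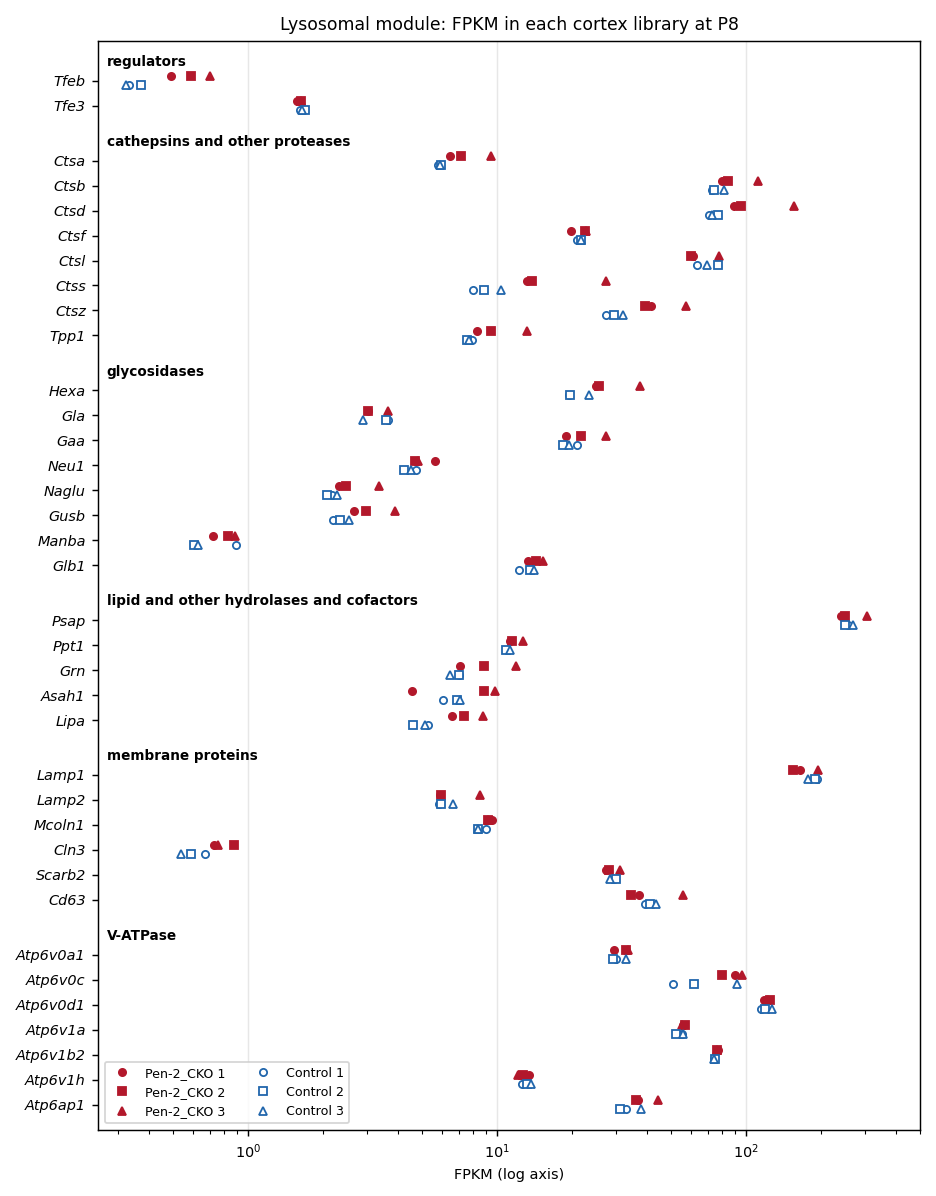
FPKM of each of the 36 members in each library on a log axis, with the 3 Pen-2_CKO libraries as filled red symbols above the 3 Control libraries as open blue symbols, grouped by role. Pen-2_CKO library 3, the red triangle, is the highest of the 6 libraries for 27 of 36 members.

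TFEB and TFE3, the transcription factors of the regulator role, had low transcript levels. Tfeb stood at 0.488, 0.586 and 0.700 FPKM in Pen-2_CKO and at 0.331, 0.370 and 0.323 FPKM in Control libraries, so the groups did not overlap. It missed the filter, since only Pen-2_CKO libraries 2 and 3 reached 0.5 FPKM. Fitted with no filter, its log2 fold change was 0.64, with an adjusted p of 0.168 (limma). Its values rested on few reads: with the longest annotated coding transcript they corresponded to 29, 36 and 44 fragments in Pen-2_CKO and 17, 18 and 19 in Control libraries, and to fewer with a shorter transcript. Tfe3 stood at 1.57, 1.63 and 1.62 FPKM in Pen-2_CKO and at 1.61, 1.69 and 1.64 FPKM in Control libraries, which overlapped (log2 fold change -0.04, SE 0.11, limma adjusted p = 0.892).

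These factors are known to bind a palindromic element of lysosomal promoters whose core is CACGTG. RefSeq promoter windows (GRCm38.p6, 250 bases before to 50 bases after the annotated start) were matched by symbol for 32 of the 36 members. There was no match for Asah1, Atp6v1h, Atp6v1b2 and Ctsb. CACGTG, which reads the same on both strands, occurred in the windows of 13 of 32 members (40.6%), beside 8.09% of 27025 genes. The longer TCACGTGA, which contains it, occurred in 7 of 32 members (21.9%), beside 1.12% of all genes. Its longer form, with G before and C after these letters, occurred in Cln3 alone of the members (3.12%), beside 0.37% of all genes. Of the 7 members with TCACGTGA, 5 are shown, covering each role with a match: a pair of proteases, a glycosidase, a membrane protein and a pump subunit. Each line runs 5′ to 3′ on the gene's strand with 20 bases on either side, and capitals mark TCACGTGA.
Ctsd, minus strand, chr7:142387899-142387946: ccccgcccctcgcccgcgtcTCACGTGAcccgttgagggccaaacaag
Ctsa, plus strand, chr2:164833740-164833804: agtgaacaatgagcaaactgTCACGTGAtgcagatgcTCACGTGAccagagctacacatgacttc
Gla, minus strand, chrX:134601173-134601253: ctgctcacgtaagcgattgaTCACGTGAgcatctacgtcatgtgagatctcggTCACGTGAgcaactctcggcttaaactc
Cln3, minus strand, chr7:126583331-126583378: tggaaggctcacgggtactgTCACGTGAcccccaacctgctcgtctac
Atp6v1a, minus strand, chr16:44139364-44139411: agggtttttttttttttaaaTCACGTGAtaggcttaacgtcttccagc

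Ctsa and Gla held 2 copies each within these stretches. The 13 members with CACGTG had a median log2 fold change of 0.11, from -0.13 for Lamp1 to 0.58 for Ctsd, and 0 of them were called. The 19 members with a window and without CACGTG had a median of 0.19, from -0.04 for Tfe3 to 0.92 for Ctss, Tfeb having no fitted value. A match says only that these letters stand in the window, and says nothing of the binding of a factor.

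The proteases, which cut proteins and peptides in the lysosome, had the highest median log2 fold change of the 6 roles, at 0.37 over 8 genes, from -0.08 for Ctsl to 0.92 for Ctss. None of the 8 was called at an adjusted p under 0.05, 5 were higher at an unadjusted p under 0.05, and the libraries of 5 did not overlap. The pair with the highest levels encodes cathepsin D, an aspartic protease, and cathepsin B, a cysteine protease. Ctsd (ENSMUSG00000007891) stood at 89.0, 95.1 and 155 FPKM in Pen-2_CKO and at 70.7, 77.0 and 72.5 FPKM in Control libraries. All 3 Pen-2_CKO libraries were above all Control libraries, but library 3 stood well above the other two, and the difference did not pass (log2 fold change 0.58, SE 0.20, limma adjusted p = 0.153). Without Pen-2_CKO library 3, the fold change of Ctsd was smaller, at 0.33, and the spread was smaller too, with an adjusted p of 0.0388 (limma). Ctsb stood at 80.2, 84.2 and 111 FPKM in Pen-2_CKO and at 72.7, 74.2 and 81.1 FPKM in Control libraries. Pen-2_CKO library 1 lay below Control library 3, so these groups overlapped (0.26, SE 0.12, limma adjusted p = 0.257).

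Cathepsins S and Z, cysteine proteases known to be abundant in microglia and macrophages, had the largest fold changes of the role. Ctss (ENSMUSG00000038642) stood at 13.1, 13.8 and 27.3 FPKM in Pen-2_CKO and at 7.98, 8.85 and 10.3 FPKM in Control libraries (log2 fold change 0.92, SE 0.28, limma adjusted p = 0.118). The groups did not overlap, and library 3 was 2.03 times the mean of the other Pen-2_CKO libraries. Without that library the fold change of Ctss was 0.58 with an adjusted p of 0.0454 (limma). Ctsz (ENSMUSG00000016256) stood at 41.4, 39.1 and 57.4 FPKM in Pen-2_CKO and at 27.2, 29.3 and 32.1 FPKM in Control libraries. Again the groups did not overlap, and Ctsz came closest to the threshold without passing it (log2 fold change 0.62, SE 0.14, limma adjusted p = 0.0541). It passed without Pen-2_CKO library 3 (0.45, limma adjusted p = 0.0343) and with equal sums of FPKM (0.67, limma adjusted p = 0.0269).

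The other proteases had smaller fold changes. Ctsa, a serine carboxypeptidase that also protects other lysosomal enzymes, had 6.44, 7.15 and 9.39 FPKM in Pen-2_CKO and 5.77, 5.92 and 5.88 FPKM in Control libraries (0.36, limma adjusted p = 0.170). Tpp1, a tripeptidyl peptidase whose loss in humans causes a childhood neuronal ceroid lipofuscinosis, had 8.27, 9.40 and 13.1 FPKM in Pen-2_CKO and 7.93, 7.55 and 7.71 FPKM in Control libraries (0.38, limma adjusted p = 0.211). For both genes the groups did not overlap, with Pen-2_CKO library 3 the highest. Ctsf and Ctsl, both cysteine proteases, had log2 fold changes of 0.02 (95% interval -0.14 to 0.18) and -0.08 (95% interval -0.35 to 0.18).

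**Figure D2:**
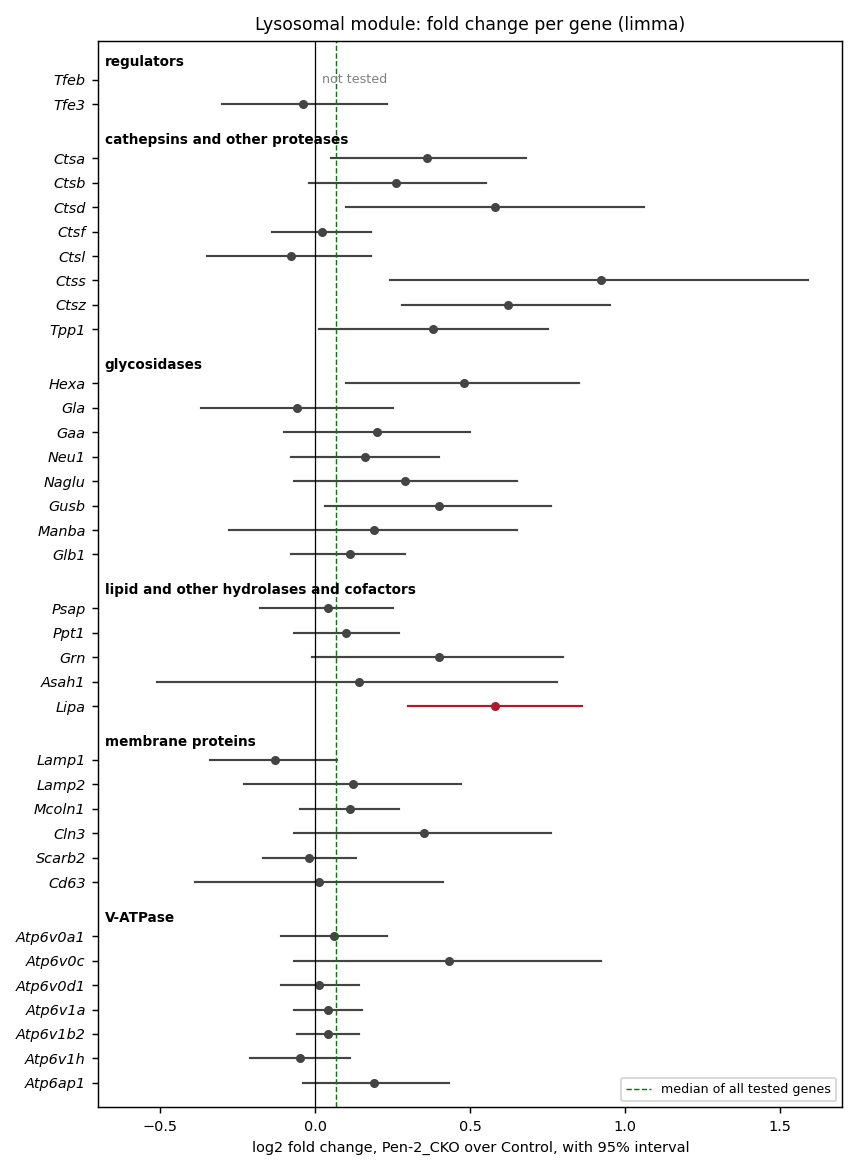
Log2 fold change of each member, Pen-2_CKO over Control, on the log2(FPKM + 0.1) scale, with limma 95% intervals; the green dashed line is the median of all tested genes, 0.07. Lipa, in red, is the member that passed at an adjusted p under 0.05, and most V-ATPase genes have intervals close around 0.

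The glycosidases, which remove sugars from glycoproteins, glycolipids and glycogen, had a median log2 fold change of 0.19 over 8 genes, from -0.06 for Gla to 0.48 for Hexa. None of the 8 was called, and the libraries of 3 (Hexa, Naglu and Gusb) did not overlap, all with Pen-2_CKO higher. Hexa, the alpha subunit of beta-hexosaminidase, stood at 24.9, 25.7 and 37.4 FPKM in Pen-2_CKO and at 19.4, 19.6 and 23.3 FPKM in Control libraries (log2 fold change 0.48, SE 0.16, limma adjusted p = 0.137). Gaa, the acid glucosidase that degrades glycogen, stood at 18.9, 21.7 and 27.3 FPKM in Pen-2_CKO and at 20.9, 18.3 and 19.4 FPKM in Control libraries, which overlapped (0.20, SE 0.13, limma adjusted p = 0.413). In both, Pen-2_CKO library 3 was the highest of the 6. Gusb, the beta-glucuronidase, had 2.66, 2.96 and 3.89 FPKM in Pen-2_CKO and 2.18, 2.34 and 2.54 FPKM in Control libraries (0.40, limma adjusted p = 0.184). Glb1, Neu1, Manba, Naglu and Gla, which remove galactose, sialic acid, mannose, N-acetylglucosamine and alpha-galactose residues, had log2 fold changes between -0.06 and 0.29, with Manba under 1 FPKM in every library. Glb1 shares 6172 bases with Tmppe on the same strand. Among overlaps on the opposite strand, Lamp1 shares 3317 bases with Grtp1, Ctsa 1515 with Pltp, Ctsb 774 with Fdft1 and Manba 569 with Oaz2-ps. Oaz2-ps had means of 14.8 FPKM in Pen-2_CKO and 14.1 FPKM in Control libraries, well above Manba. Reads of these pairs may have been shared between them.

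Among the lipid and other hydrolases and their cofactors, the median log2 fold change was 0.14 over 5 genes, from 0.04 for Psap to 0.58 for Lipa. Lipa (ENSMUSG00000024781, chr19:34492318-34527474, mm10) encodes lysosomal acid lipase, which splits cholesteryl esters and triglycerides delivered to the lysosome. It stood at 6.55, 7.38 and 8.72 FPKM in Pen-2_CKO and at 5.28, 4.59 and 5.14 FPKM in Control libraries. Each Pen-2_CKO library was above each Control library, and Lipa rose by 0.58 on the log2 scale (SE 0.12, 95% interval 0.30 to 0.86, limma adjusted p = 0.0387). That call was not stable. It was lost when any 1 of the 3 Control libraries was left out (limma adjusted p = 0.0866, 0.133 and 0.064 without Control 1, 2 and 3), and without Pen-2_CKO library 2 (adjusted p = 0.115) or 3 (adjusted p = 0.070). It was also lost with no filter, with median-ratio or upper-quartile scaling and with no mean-variance trend (limma adjusted p = 0.0544 to 0.0671), while its fold change stayed between 0.47 and 0.62 in all of these fits. The promoter window of Lipa is shown because it is the gene that passed; it held no CACGTG on either strand, and 59.3% of its bases were G or C.
Lipa, minus strand, chr19:34527425-34527724: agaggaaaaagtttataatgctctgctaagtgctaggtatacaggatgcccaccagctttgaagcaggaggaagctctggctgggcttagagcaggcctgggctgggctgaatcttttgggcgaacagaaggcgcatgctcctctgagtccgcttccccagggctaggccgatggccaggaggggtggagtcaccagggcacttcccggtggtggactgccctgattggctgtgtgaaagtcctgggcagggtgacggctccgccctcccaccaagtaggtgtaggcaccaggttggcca

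Psap, the precursor of the saposins that help enzymes reach sphingolipids, was the most abundant member. It stood at 241, 249.8 and 306 FPKM in Pen-2_CKO and at 255, 249 and 268 FPKM in Control libraries, which overlapped (log2 fold change 0.04, 95% interval -0.18 to 0.25). Ppt1, the thioesterase that removes palmitate from proteins, stood at 11.2, 11.4 and 12.7 FPKM in Pen-2_CKO and at 10.9, 10.8 and 11.2 FPKM in Control libraries (0.10, limma adjusted p = 0.465). Grn, which encodes progranulin, had 7.05, 8.82 and 11.9 FPKM in Pen-2_CKO and 7.03, 7.03 and 6.46 FPKM in Control libraries. The groups did not overlap by a narrow margin, and the spread of the Pen-2_CKO libraries was wide (0.40, SE 0.17, limma adjusted p = 0.227). Asah1, the acid ceramidase, varied widely among the Pen-2_CKO libraries, with 4.55, 8.80 and 9.77 FPKM in Pen-2_CKO and 6.07, 6.88 and 7.06 FPKM in Control libraries (0.14, 95% interval -0.51 to 0.78).

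The membrane proteins had a median log2 fold change of 0.06 over 6 genes, from -0.13 for Lamp1 to 0.35 for Cln3, close to the 0.07 of all tested genes, and the median was -0.01 after median-ratio scaling. None was called, and 0 of 6 passed at an unadjusted p under 0.05. Lamp1, the main glycoprotein of the lysosomal membrane, stood at 164, 154 and 194 FPKM in Pen-2_CKO and at 193, 189 and 177 FPKM in Control libraries. Pen-2_CKO libraries 1 and 2 were the lowest of the 6 and library 3 the highest (-0.13, SE 0.09, limma adjusted p = 0.411). Cd63, a tetraspanin of late endosomes, showed the same order, with 37.1, 34.4 and 55.6 FPKM in Pen-2_CKO and 39.3, 41.1 and 43.2 FPKM in Control libraries (0.01, 95% interval -0.39 to 0.41). Lamp2, needed for fusion of autophagosomes with lysosomes, and Scarb2, the carrier of glucocerebrosidase, overlapped between groups, with log2 fold changes of 0.12 and -0.02. Mcoln1, a lysosomal calcium channel, did not overlap but differed little, with 9.56, 9.13 and 9.18 FPKM in Pen-2_CKO and 9.04, 8.34 and 8.38 FPKM in Control libraries (0.11, limma adjusted p = 0.382). Cln3, mutated in human juvenile neuronal ceroid lipofuscinosis, was under 1 FPKM in every library and did not overlap either (0.35, limma adjusted p = 0.297).

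The V-ATPase genes had the lowest median among the tested roles of more than 1 gene, at 0.04 over 7 genes, and -0.03 after median-ratio scaling. None was called, and 0 of 7 passed at an unadjusted p under 0.05. Atp6v0d1, which joins the membrane ring to the central stalk, stood at 118, 124 and 122 FPKM in Pen-2_CKO and at 114, 119 and 127 FPKM in Control libraries (0.01, 95% interval -0.11 to 0.14). Atp6v1a, the catalytic subunit that hydrolyses ATP, stood at 55.7, 56.7 and 55.0 FPKM in Pen-2_CKO and at 54.9, 52.4 and 55.8 FPKM in Control libraries (0.04, 95% interval -0.07 to 0.15). The groups overlapped for both subunits. With other scalings the log2 fold change of Atp6v0d1 was -0.06 (median-ratio) and that of Atp6v1a 0.09 (equal sums). Atp6v1b2, the partner of the catalytic subunit in the brain, was tight enough that its groups did not overlap, with 77.0, 76.3 and 75.9 FPKM in Pen-2_CKO and 74.4, 74.5 and 74.2 FPKM in Control libraries (0.04, 95% interval -0.06 to 0.14).

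Atp6v0c, which forms the proton-carrying ring, was the exception in size and spread. It stood at 90.2, 80.2 and 95.7 FPKM in Pen-2_CKO and at 50.6, 61.5 and 91.5 FPKM in Control libraries (0.43, SE 0.21, limma adjusted p = 0.282). Control library 3 lay among the Pen-2_CKO libraries, and without it the fold change of Atp6v0c was 0.67 with an adjusted p of 0.0299 (limma). Atp6ap1, an accessory subunit, had 36.6, 36 and 44.0 FPKM in Pen-2_CKO and 32.9, 31.2 and 37.8 FPKM in Control libraries, with overlap (0.19, limma adjusted p = 0.309). Atp6v0a1 and Atp6v1h, subunits of the membrane and the cytosolic sector, had log2 fold changes of 0.06 and -0.05.

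Pen-2_CKO library 3 was above the other Pen-2_CKO libraries for most members outside the V-ATPase. It was the highest of the 6 libraries for 27 of 36 members (75.0%), beside 26.7% of all tested genes, and for all 8 proteases and all 5 lipid and other hydrolases and cofactors, 6 of 8 glycosidases, 4 of 6 membrane proteins, 3 of 7 V-ATPase genes and 1 of 2 regulators. The median ratio of its level to the mean of Pen-2_CKO libraries 1 and 2 was 1.23 over the members and 1.01 over all tested genes, from 1.40 for the proteases to 1.01 for the V-ATPase genes. The pattern was shared with other lysosomal genes: in a separate list of 63 lysosomal genes, library 3 was the highest for 35 genes (55.6%), with a median ratio of 1.16. It was also shared with marker lists of cell classes. Library 3 was the highest for 8 of 11 oligodendrocyte lineage, 8 of 12 microglia, 4 of 6 border macrophage, 4 of 5 meningeal and 5 of 5 choroid plexus markers. The same held for 2 of 5 endothelial, 2 of 8 neuronal and 1 of 10 astrocyte markers. For 8 of 10 astrocyte markers all Pen-2_CKO libraries lay below all Control libraries, so library 3 could not be the highest. Against the mean of Pen-2_CKO libraries 1 and 2, library 3 had a median ratio of 1.67 for astrocyte markers. That ratio was 1.37 for microglia, 1.62 for border macrophage, 1.22 for oligodendrocyte lineage and 1.63 for meningeal markers. It was 2.97 for choroid plexus, 1.04 for endothelial and 0.907 for neuronal markers. The mean of libraries 1 and 2 over the Control mean had a median of 1.06 over the members, beside 1.05 over all tested genes. The standard deviation was larger in Pen-2_CKO than in Control libraries for 29 of 36 members (80.6%), beside 44.9% of all tested genes. Without Pen-2_CKO library 3, the members' median log2 fold change was 0.06, beside 0.07 over all tested genes, 24 of 35 members lay above 0, the median of the proteases was 0.20, and Ctsd, Ctss and Ctsz were called in place of Lipa. With that library left out, 2.33% of all tested genes were called higher.

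Summed markers of cell classes differed among the libraries, in different directions. The summed level of 12 microglia markers was 119, 129 and 195 FPKM in Pen-2_CKO and 80.4, 90.1 and 96.9 FPKM in Control libraries. Library 3 was again the highest, and the sums of the groups did not overlap. C1qa, C1qb, C1qc and Tyrobp made up most of that sum. Of the 12 markers, 4 overlapped between groups. The others did not, 7 with Pen-2_CKO higher and 1 lower, beside 21.5% and 8.17% of all tested genes. Of 11 microglia markers tested, Tyrobp and Fcrls were called higher, and P2ry12 had a log2 fold change of -0.34. Siglech was too low to be tested, at 0.281, 0.275 and 0.231 FPKM in Pen-2_CKO and 0.447, 0.422 and 0.543 FPKM in Control libraries. Its groups did not overlap, with Pen-2_CKO lower. The 6 markers of border macrophages summed to 5.75, 4.18 and 7.96 FPKM in Pen-2_CKO and 5.86, 5.61 and 7.0 FPKM in Control libraries, with 0 of 4 tested called. The 5 choroid plexus markers, of which Ttr made up nearly all, summed to 329.6, 186 and 888 FPKM in Pen-2_CKO and 35.4, 106 and 182 FPKM in Control libraries. The 5 meningeal markers summed to 60.1, 42.7 and 81.5 FPKM in Pen-2_CKO and 21.6, 20 and 23.4 FPKM in Control libraries, with 3 of 5 called higher. The 10 astrocyte markers summed to 126, 129 and 225 FPKM in Pen-2_CKO and 403, 462 and 481 FPKM in Control libraries, with 7 called lower. The 11 oligodendrocyte lineage markers summed to 337, 433 and 436 FPKM in Pen-2_CKO and 120.2, 129 and 159 FPKM in Control libraries. Endothelial markers summed to 51.0, 47.8 and 52.7 FPKM in Pen-2_CKO and 38.5, 38.1 and 45.5 FPKM in Control libraries. The 8 neuronal markers summed to 1656, 1598 and 1548 FPKM in Pen-2_CKO and 1857, 1865 and 1864 FPKM in Control libraries, so library 3 was the lowest. Tubb3 made up most of that sum, with 1191, 1105 and 1126 FPKM in Pen-2_CKO and 1415, 1439 and 1358 FPKM in Control libraries. Of the 8, 1 was called lower (Tubb3) and 1 higher (Gad1), and their median log2 fold change was -0.03. The protease genes summed to 319.5, 331 and 474 FPKM in Pen-2_CKO and 276, 301 and 301 FPKM in Control libraries. The part of these cell classes in the members' values was not tested.

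**Figure D3:**
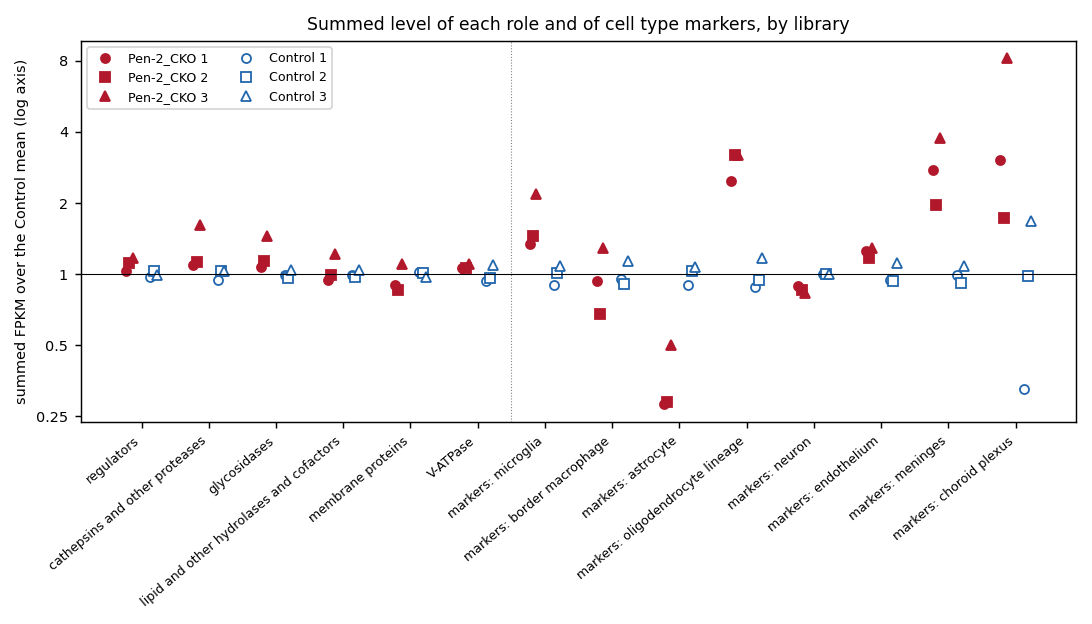
Summed FPKM of each role of the module (left of the dotted line) and of each cell type marker list (right) in each library, divided by the mean of the 3 Control libraries, on a log axis. Pen-2_CKO library 3 (red triangle) is the highest point for every role and for every marker list except those of astrocytes and neurons. The V-ATPase sums lie close together.

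Other genes of the lysosome were taken from that list of 63 genes, which shares none with the module. Of 60 tested, 3 were called higher and 0 lower, beside 3.67% and 1.87% of all tested genes. At an unadjusted p under 0.05, 20 were higher and 5 lower, beside 16.5% and 6.33% of all tested genes, and the median log2 fold change was 0.15, beside 0.07. Lgmn, the asparagine-specific protease legumain, rose, with 42.6, 44.8 and 50.4 FPKM in Pen-2_CKO and 34.1, 32.9 and 34.8 FPKM in Control libraries (log2 fold change 0.43, SE 0.07, limma adjusted p = 0.0176). Cd68, a lysosomal glycoprotein of phagocytes, rose, with 7.57, 6.64 and 12 FPKM in Pen-2_CKO and 3.53, 3.42 and 4.84 FPKM in Control libraries (1.10, SE 0.23, limma adjusted p = 0.0418). Neither gene overlapped between groups. Atp6v1g2, the V-ATPase G subunit known from neurons, rose, with 17.0, 27.7 and 25.9 FPKM in Pen-2_CKO and 11.5, 10.4 and 12.2 FPKM in Control libraries (1.02, SE 0.18, limma adjusted p = 0.0224). It shares 2133 bases with Nfkbil1 on the opposite strand, which had a log2 fold change of -0.02, and whether counting used strand is not given in the sources used here. Leaving out single libraries gave adjusted p from 0.021 to 0.078 for Lgmn, 0.0451 to 0.143 for Cd68 and 0.00232 to 0.0882 for Atp6v1g2 (limma). Lgmn was lost without Control library 1 or 2 or Pen-2_CKO library 2, and Cd68 without any of these or Pen-2_CKO library 1. Atp6v1g2 was lost without any single library other than Pen-2_CKO library 1. Cd68 was also lost with no filter, with median-ratio or upper-quartile scaling and with no mean-variance trend (limma adjusted p = 0.056 to 0.0722), and Lgmn with no mean-variance trend (limma adjusted p = 0.0516).

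The deposited series-wide table also held a value per group, a q-value and an up or down mark from the authors. In the authors' deposited table, 10 members were marked up (Tfeb, Ctsa, Ctsd, Ctss, Ctsz, Tpp1, Hexa, Gusb, Grn and Lipa) and 0 down, where 2.6% of 22832 genes with a q-value were marked up and 0.491% down. The authors' deposited table gave a Pen-2_CKO group value above every one of the 3 deposited Pen-2_CKO libraries for 25 of 36 members (69.4%), beside 19.1% of all tested genes, and a Control group value above every Control library for 2 members. For Ctsd the authors' deposited table gave 341 FPKM for Pen-2_CKO and 72.7 FPKM for Control, where the highest Pen-2_CKO library had 155 FPKM. For Ctss the authors' deposited table gave 62.7 FPKM for Pen-2_CKO and 9.05 FPKM for Control, where the highest Pen-2_CKO library had 27.3 FPKM. For Ctsl, whose libraries overlapped, the authors' deposited table gave 179 FPKM for Pen-2_CKO and 70.0 FPKM for Control. The Pen-2_CKO group value of none of the 7 V-ATPase genes in the authors' deposited table exceeded the highest library. How the group values were made is not given in the sources used here, and the results above rest on the libraries alone.

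**Figure D4:**
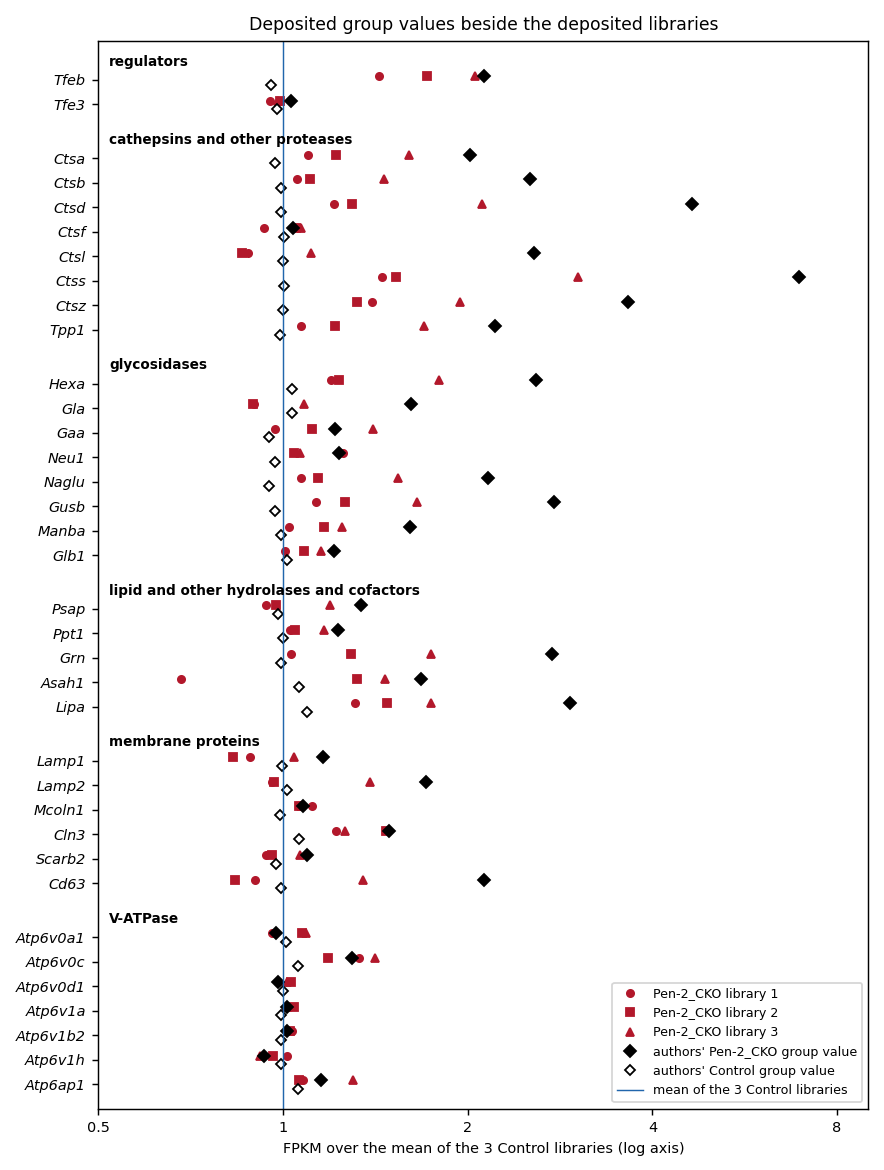
For each member, the 3 Pen-2_CKO libraries (red) and the Pen-2_CKO and Control group values of the authors' deposited table (filled and open black diamonds), each divided by the mean of the 3 Control libraries, on a log axis. For 25 of 36 members the filled diamond lies to the right of all 3 red symbols, farthest for proteases such as Ctss and Ctsd, while the open diamonds lie near 1.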

How the data were processed

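RNA from P8 mouse cortex was made into libraries with a VAHTS Universal V6 kit (the labels' protocols) and the reads were processed on build mm10, per the submitters' processing notes. Not given in the sources used here are the aligner, counting program, annotation, RNA selection and use of strand. The authors deposited FPKM per gene and library, per the file headers, in a table whose name says raw counts. Low values in single-transcript genes were whole fragments (within 0.01) for 93.6% to 95.0% of genes, which gave the depths, but counts were not recovered for genes with several transcripts, and count tests were not used. The per-library files and the series-wide table were identical for all 34745 genes. The authors deposited q-values (p-values adjusted by an unstated method) and group values in FPKM, used only where named. Gene ranges of 27686 genes were identical to GENCODE M21, and 27 symbols turned into dates were restored by gene ID.

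From the FPKM, limma 3.58.1 in R 4.3.3 (mean-variance trend, robust variance, group as the only term) was run on log2(FPKM + 0.1) where 3 or more libraries reached 0.5 FPKM (14147 genes). Fold changes are differences of these log2 values, so those of low genes are understated. Benjamini-Hochberg adjustment covered all tested genes, with calls at an adjusted p under 0.05. The steps were tested on simulated data. The members, the wider list, the marker lists, the test and its settings were chosen with earlier results of these data known. Named are called members, the 2 highest-expressed members of each role, called genes of the wider list and Psenen; other members were named to account for all 36. Alternatives varied the filter, pseudocount, scaling, variance model, block, threshold and each library left out. Python 3.11.15, pandas 2.3.3, NumPy 2.4.6 and matplotlib 3.10.9 handled tables, motifs and figures.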

Additional observations from a re-analysis of the deposited data

Results flagged for a closer look

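Some values in the authors' deposited table, which no comparison of the libraries uses, stood out for the module. The Pen-2_CKO group value in the authors' deposited table lay above all 3 Pen-2_CKO libraries for 25 of 36 members, with a median of 1.28 times the mean of those libraries, beside 1.01 over all tested genes. The Control group value in the authors' deposited table had a median of 0.994 times the mean of the Control libraries. In the authors' deposited table the Pen-2_CKO group value also lay above all 3 libraries for 12 of 12 microglia markers and 6 of 6 border macrophage markers, among them C1qa at 83.4 FPKM where the highest Pen-2_CKO library had 44.0 FPKM. For 0 of 11 oligodendrocyte lineage markers and 0 of 8 neuronal markers did the group value in the authors' deposited table do so. It did so for 4 of 10 astrocyte markers and 2 of 5 endothelial markers, beside 19.1% of all tested genes. Of the meningeal and the choroid plexus markers, 0 of 5 did so in each list.

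The authors' deposited table marked 10 members up, where limma on the 6 libraries called 1, Lipa, which is among the 10. For Ctsd and Ctss the authors' deposited table gave q-values of 0.00803 and 0.00173, where limma on the libraries gave adjusted p-values of 0.153 and 0.118. All 705 genes marked in the authors' deposited table had a group value at least 2 times the other.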

How the results depend on the processing

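The count of members called higher was 1; it was 0 with no filter, with median-ratio or upper-quartile scaling and with no mean-variance trend, 2 with equal sums of FPKM (Ctsz and Lipa) and 2 at an adjusted p under 0.1, and 0 to 3 with single libraries left out. No member was called lower in any of these fits, and no called fold change was reversed. Over single members and alternatives, 576 results kept their side of the threshold, 10 lost a call (all Lipa) and 7 gained one (4 of them Ctsz, and Ctsd, Ctss and Atp6v0c once each). Over all genes, 519 were called higher and 264 lower; these were 323 higher with no filter, 312 higher and 346 lower with median-ratio scaling, 319 and 339 after scaling by the upper quartile, 907 and 244 with equal sums, 1070 and 449 at an adjusted p under 0.1, and 135 to 582 higher and 85 to 309 lower with single libraries left out. Equal sums of FPKM moved the median log2 fold change of all genes to 0.12. The 3 calls of the wider list became 7 with equal sums, 1 with no mean-variance trend, 8 (and 1 lower) at an adjusted p under 0.1, and 0 to 4 higher and 0 to 2 lower with single libraries left out. Causes of these differences were not tested.

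Whether the same replicate numbers pair the samples was not settled. The correlations of deviations from the group means were 0.0606, 0.0116 and 0.1 for numbers 1, 2 and 3. Between unlike numbers they ran from -0.0905 to 0.0562. Pen-2_CKO 1 and 3 correlated best with the Control of the same number, and Pen-2_CKO 2 correlated best with Control 1. With the replicate block, 290 genes were called higher and 166 lower, with 1 member higher (Ctsz, limma adjusted p = 0.0358, and not Lipa, adjusted p = 0.0694) and 4 genes of the wider list. Members under 1 FPKM (Tfeb, Manba and Cln3) rest on few fragments, which limits what their values can show.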
